A study of Mus musculus with 24 samples.

Results

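The chromatin around Ahr, the gene targeted in one arm of the experiment, was described peak by peak over a 21 Mb window of mouse chromosome 12. The window was fixed by position alone: every consensus ATAC-seq peak that started at or after base 25000000 and ended by base 46000000 of chr12 (mm10) was taken, with Ahr near its middle. This gave 1462 of the 184158 consensus peaks and 1462 of the 8075 on chromosome 12. Of these, 1372 passed the filter on low counts and were tested, and 90 were not. By the GENCODE vM21 basic annotation 45 lay over a promoter, 74 over another exon, 612 in an intron and 731 between genes, and the peaks were 132 to 3633 bp long, with a median of 529.5 bp. The window holds 74 protein-coding genes.

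The study asked how the loss of AhR changes chromatin in alveolar-like macrophages. Bone marrow of wild-type C57/B6/J mice (WT) or of mice homozygous for the Ahr tm1Bra allele on a B6.129 background (AhR-KO) was grown with GM-CSF at 10 ng/ml, TGF-β at 2 ng/ml and 10% serum, which turns marrow into macrophages resembling those of the lung. Cultures were left unstimulated or given lipopolysaccharide (LPS), the bacterial ligand of TLR4, at 97 EU/ml on day 6 for 24 h. The labels attach a 10 min exposure to the ionophore A23187 at 5 µM to all 24 libraries, so that it was shared by controls and treated cultures. There were 6 libraries, from 6 animals, in each of the 4 groups (WT unstimulated, AhR-KO unstimulated, WT LPS, AhR-KO LPS), from 1 experiment that used both sexes, and the p-values measure the spread between these animals. The labels do not say whether unstimulated and LPS libraries of a genotype share animals, and these libraries were tested as unpaired. The 2 genotypes were bred as separate lines, so that the lack of AhR and any 129-derived DNA that travels with the targeted allele along this chromosome cannot be told apart.

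AhR waits in the cytosol as a receptor for small molecules, moves to the nucleus when a tryptophan metabolite or a pollutant binds it, pairs with ARNT and recognises DNA with the core GCGTG. It is abundant in tissue macrophages at barriers such as the lung. ATAC-seq reads come from open DNA into which the Tn5 transposase can insert adapters, so a peak marks an accessible promoter, enhancer or boundary, and its height reflects how open that site is over the whole culture. In bulk material, fewer cells with an open site and a less open site in each cell cannot be told apart.

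Levels are given as CPM, in which the count of a peak is scaled to the TMM-adjusted total of its library over all consensus peaks. A differentially accessible region (DAR) is a peak that differed at least 1.5-fold and had an adjusted p no higher than 0.05 in edgeR's quasi-likelihood test over all 174193 tested peaks, and a log2 difference is AhR-KO minus WT, or LPS minus unstimulated, with its standard error. Libraries held 8.54 to 34.6 M counts in consensus peaks, the shallowest being WT unstimulated replicate 5. No pair of libraries within a group held identical counts. Peaks over the start sites of macrophage genes were open: 4 of the 5 macrophage markers (Csf1r, Adgre1, Cd68, Mertk) held 10.8 to 49.8 CPM in every library, and all 4 alveolar macrophage markers held 1.2 to 34.4 CPM. Among markers of other marrow or lung cells, S100a8 of neutrophils and Epcam of epithelium had a peak over their start (3.81 to 26.9 CPM over both), and those of T, B, NK and mast cells, fibroblasts and the neutrophil gene Elane had none. The part of other cells in the results was not tested.

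The reference sequences of the sites on which the results turn are shown first. They are read from GRCm38.p6 (mm10), plus strand, 5′ to 3′, and are those of C57BL/6J; the sequence carried by the AhR-KO animals was not measured here. Capitals mark a match to the AhR core GCGTG, read as CACGC from the other strand. In the Prkar2b sequence they mark the AP-1 motif TGANTCA, and a run without capitals holds neither of these, and also lacks the motif of PU.1, spelled GAGGAAG, on either strand. The first lies in a peak whose counts were 0 in every AhR-KO library, and 100% of it is annotated as repeat (chr12:35344822-35344996). The second is the centre of the peak beyond the 3′ end of Ahr that was nearly lost (chr12:35480437-35480736), and the third the centre of the most reduced Prkar2b peak (chr12:32015339-32015638). The last 3 come from peaks that were open mainly in AhR-KO libraries: an intron of Sntg2 (chr12:30282484-30282783), the space before Agr2 (chr12:35978256-35978555) and an intron of Ahr itself (chr12:35520849-35521148).
Repeat beyond the 3′ end of Ahr: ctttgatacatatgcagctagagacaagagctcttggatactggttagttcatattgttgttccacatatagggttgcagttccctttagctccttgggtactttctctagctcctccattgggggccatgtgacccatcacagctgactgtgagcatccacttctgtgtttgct
Peak closest to the 3′ end of Ahr among the lost ones: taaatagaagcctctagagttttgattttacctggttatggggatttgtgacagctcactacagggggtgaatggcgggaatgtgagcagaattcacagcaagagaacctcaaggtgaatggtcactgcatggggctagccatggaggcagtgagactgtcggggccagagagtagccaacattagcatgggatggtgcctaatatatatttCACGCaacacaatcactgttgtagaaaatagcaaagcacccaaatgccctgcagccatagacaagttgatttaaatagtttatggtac
Prkar2b intron: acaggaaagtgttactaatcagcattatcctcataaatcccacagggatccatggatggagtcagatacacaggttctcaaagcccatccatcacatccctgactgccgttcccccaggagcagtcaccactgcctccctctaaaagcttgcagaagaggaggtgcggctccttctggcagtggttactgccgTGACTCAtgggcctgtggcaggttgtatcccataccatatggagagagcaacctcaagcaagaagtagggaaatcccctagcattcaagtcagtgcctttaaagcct
Sntg2 intron: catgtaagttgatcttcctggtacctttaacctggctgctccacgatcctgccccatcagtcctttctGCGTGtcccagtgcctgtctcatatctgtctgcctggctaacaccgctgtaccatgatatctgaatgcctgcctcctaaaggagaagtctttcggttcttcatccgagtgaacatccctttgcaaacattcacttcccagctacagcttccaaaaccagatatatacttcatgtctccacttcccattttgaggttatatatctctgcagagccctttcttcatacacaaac
Before Agr2: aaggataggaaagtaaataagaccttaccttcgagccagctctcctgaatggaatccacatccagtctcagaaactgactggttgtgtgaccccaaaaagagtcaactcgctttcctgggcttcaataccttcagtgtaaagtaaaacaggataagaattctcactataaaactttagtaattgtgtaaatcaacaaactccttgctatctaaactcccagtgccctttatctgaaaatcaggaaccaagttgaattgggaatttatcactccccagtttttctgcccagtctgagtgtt
Ahr intron: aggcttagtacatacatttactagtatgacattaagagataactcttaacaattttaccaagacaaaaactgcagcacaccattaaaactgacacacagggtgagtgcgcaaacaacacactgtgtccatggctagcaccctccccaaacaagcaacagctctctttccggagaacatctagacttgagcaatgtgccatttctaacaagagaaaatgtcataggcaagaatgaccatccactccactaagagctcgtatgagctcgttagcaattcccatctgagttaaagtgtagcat

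Ahr itself (ENSMUSG00000019256, chr12:35497974-35535038, minus strand) carried 13 peaks, and AhR-KO libraries were less open than WT at its start and more open along most of the gene. Exon 2 (chr12:35526681-35526868), which the targeted allele alters, lies between peaks that end 510 and 502 bases away on its sides, so that no consensus peak covers it and the deletion could not be checked in the counts. At the transcription start site (TSS; chr12:35534070-35535364) the lowest, median and highest of the 6 libraries were 20.2, 22.3 and 24.6 CPM in WT and 11.5, 13.1 and 15.1 CPM in AhR-KO without stimulation. With LPS they were 19, 19.9 and 22.2 CPM in WT and 11.9, 15.1 and 16.8 CPM in AhR-KO. Every AhR-KO library lay below every WT library of the same treatment. The log2 difference was -0.78 ± 0.08 unstimulated (adjusted p = 3.3e-10), a DAR, and -0.45 ± 0.07 with LPS (adjusted p = 4.8e-06), which did not reach 1.5-fold.

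Inside the gene the direction turned. Without stimulation 9 of the 13 peaks were DARs higher in AhR-KO and 2 were lower, and with LPS 10 were higher and 1 was lower, where 22.6% and 26.5% of all tested peaks were DARs in these comparisons. With LPS the most changed was an intronic peak 14039 bases into the gene (chr12:35520141-35521857). It held 0.883, 1.32 and 1.78 CPM (lowest, median and highest) in WT unstimulated and 1.96, 2.41 and 2.88 CPM in AhR-KO unstimulated. With LPS it held 1.03, 1.15 and 1.35 CPM in WT and 10.4, 15.5 and 19.4 CPM in AhR-KO. All 6 AhR-KO LPS libraries stood far above the other 18. The log2 difference between genotypes was 0.91 ± 0.17 unstimulated and 3.72 ± 0.14 with LPS (adjusted p = 5.6e-05 and 3.4e-20). LPS moved it by -0.16 ± 0.19 in WT (adjusted p = 0.47) and by 2.65 ± 0.13 in AhR-KO (adjusted p = 2.1e-19), and this difference in response was itself significant (2.81 ± 0.23, adjusted p = 4.1e-10).

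The peaks on either side of exon 2 were both more open in AhR-KO. The one within intron 2 (chr12:35525485-35526171) rose from 0.40 ± 0.178 to 1.34 ± 0.324 CPM unstimulated and from 0.235 ± 0.0932 to 1.95 ± 0.409 CPM with LPS (mean ± SD, n = 6). The one within intron 1 (chr12:35527370-35528112) rose from 1.7 ± 0.518 to 5.24 ± 0.553 CPM and from 1.43 ± 0.266 to 6.6 ± 1.18 CPM. Their log2 differences were 1.67 and 3.04, and 1.66 and 2.21. The next peak into the gene (chr12:35524027-35524767) gave 1.75 ± 0.20 and 3.49 ± 0.19, and the peak over exon 3 (chr12:35513939-35516182), at 9.57 ± 1.74 CPM in AhR-KO LPS and 1.54 ± 0.362 CPM in WT LPS, gave 1.89 ± 0.16 and 2.63 ± 0.14.

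Towards the 3′ end AhR-KO libraries were higher as well, and at 4 of the 5 peaks the difference was larger with LPS. The peak over exon 5 (chr12:35510724-35511223) differed by 0.99 unstimulated and 2.90 with LPS. At chr12:35505307-35505845 the difference was 0.34 (adjusted p = 0.48) and then 2.58 (adjusted p = 2.6e-09), and at chr12:35501563-35503004 it was 0.94 and 2.50. The peak over exon 10 (chr12:35503669-35504583) gave 0.86 and 1.94, and chr12:35506573-35507397 gave 0.85 and 0.72. These peaks were low in WT: none of the 5 held a mean above 1.31 CPM in either WT group.

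Against this, a single intronic peak was lower in AhR-KO in both treatments (chr12:35518178-35519384). It held 1.74, 2.15 and 2.92 CPM in WT and 0.263, 0.359 and 0.521 CPM in AhR-KO unstimulated, with no overlap, and 1.18, 1.57 and 1.95 CPM and 0.502, 1.08 and 1.38 CPM with LPS, where the groups overlapped. The log2 difference shrank from -2.58 ± 0.22 to -0.60 ± 0.18 (interaction 1.97 ± 0.30, adjusted p = 1.8e-05). The remaining peak, in intron 1 near the TSS (chr12:35532237-35532790), was a DAR in neither treatment (-0.35 and -0.29, adjusted p = 0.067 and 0.1).

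**Figure D1:**
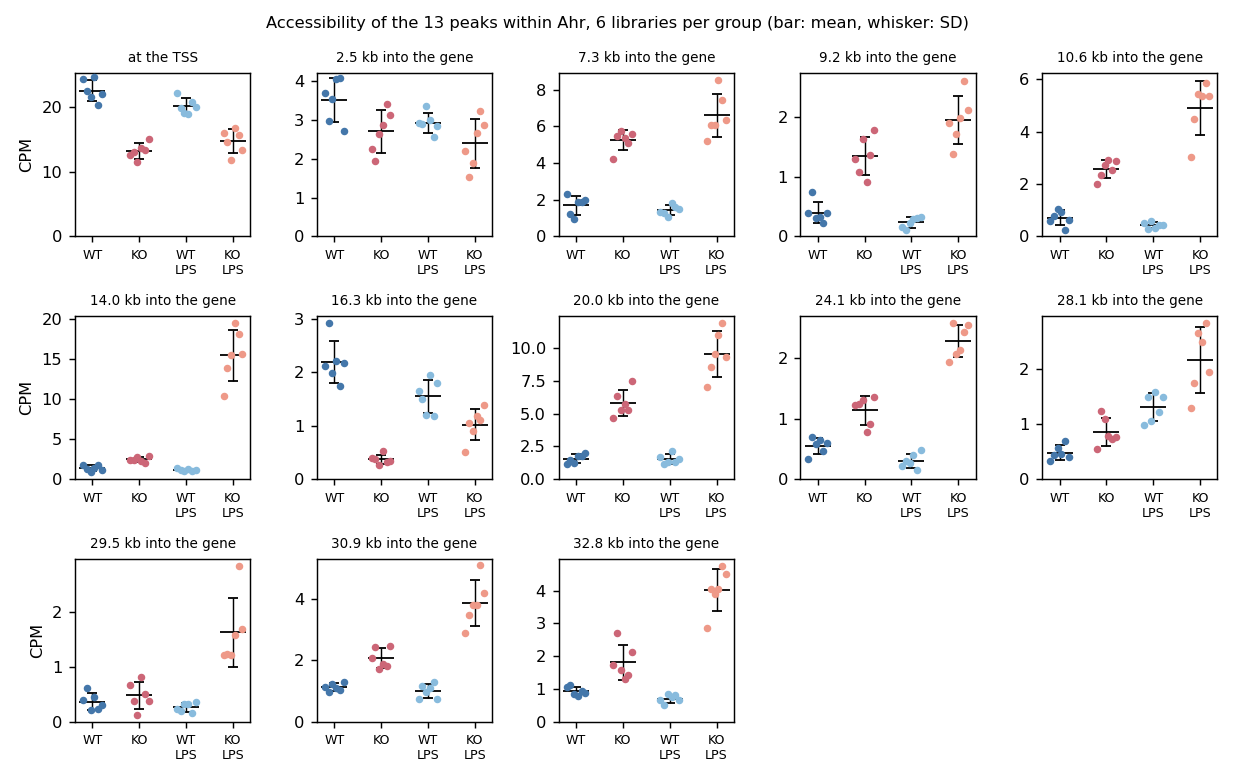
Accessibility in CPM (y axes, each from 0) of the 13 peaks within Ahr in the 4 groups (x axes: WT, AhR-KO labelled KO, and both with LPS), ordered from the start site into the gene, with points for the 6 libraries, a bar at the mean and whiskers of 1 SD. The start-site peak is lower in every AhR-KO library, most peaks further in are higher in AhR-KO, and the peak 14 kb into the gene is high only in the 6 AhR-KO LPS libraries.

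LPS shifted the genotype difference upwards within Ahr. In WT cultures it opened 1 of the 13 peaks and closed 3, and in AhR-KO cultures it opened 9 and closed none (DARs; 47.0% and 48.9% of all tested peaks were DARs of LPS in WT and in AhR-KO). The interaction, the genotype difference with LPS minus that without, was positive and a DAR at 9 of the 13 peaks and negative at none, against 10.4% interaction DARs of all tested peaks. Over all tested peaks, 12.6% were DARs lower and 9.95% higher in AhR-KO unstimulated, and 13.1% lower and 13.4% higher with LPS. Of the 80 tested peaks whose nearest protein-coding TSS was that of Ahr, 30 (37.5%) were lower and 13 (16.25%) higher unstimulated. With LPS 25 (31.25%) of the 80 were lower and 22 (27.5%) higher. LPS opened 20 and closed 21 of these in WT and opened 35 and closed 11 in AhR-KO, and the interaction was a DAR at 24, of which 22 were positive.

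Outside the gene, the chromatin next to Ahr held the 2 deepest losses of the window. The peak 54451 bases from the TSS and beyond the 3′ end (chr12:35479981-35481193; second sequence above) held 3.72, 5.44 and 6.97 CPM in WT unstimulated and 6.06, 6.7 and 7.63 CPM in WT LPS. In AhR-KO it held 0, 0.0863 and 0.228 CPM and 0, 0.14 and 0.244 CPM. In counts, this was 631 and 1265 in the 6 WT libraries against 13 and 19 in the 6 AhR-KO libraries of each treatment. The groups stood far apart in both treatments, with log2 differences of -5.79 ± 0.28 and -5.71 ± 0.25 (adjusted p = 1.9e-17 and 1.3e-18), and LPS changed it in neither genotype beyond the threshold (adjusted p = 0.085 and 0.57).

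The peak over the repeat (chr12:35344822-35344996, 190129 bases from the Ahr TSS; first sequence above) was chosen after its values were seen, as were the other strongly reduced peaks in Cdhr3, in Cog5, near Snx13, near Arl4a and in Immp2l, the gain in Cdhr3 and the start site of Fam110c below. It was small in WT, with 0.276, 0.417 and 0.698 CPM unstimulated and 0.201, 0.626 and 1.08 CPM with LPS, and it had 0 counts in all 12 AhR-KO libraries. The WT libraries held 49 and 112 counts over it, so that against a floor of 3 counts over the group the level in AhR-KO was at least 20.9-fold lower unstimulated and at least 30.9-fold lower with LPS. Reads from a repeat can fit several places of the genome, and their part in this result was not tested. Between both sites, and also chosen after its values were seen, chr12:35389766-35390599 was reduced from a mean of 2.14 to 0.20 CPM unstimulated and from 6.95 to 0.232 CPM with LPS (log2 -3.37 and -4.88), and LPS opened it in WT (1.72) but was no DAR in AhR-KO (0.20). The interaction was no DAR either (-1.51). Also there, chr12:35459764-35460128 had the strongest LPS response of the named peaks and no genotype DAR. It rose from 0.406 ± 0.0383 to 8.03 ± 0.869 CPM in WT and from 0.325 ± 0.14 to 10.2 ± 1.11 CPM in AhR-KO, log2 differences of 4.26 ± 0.16 and 4.95 ± 0.16.

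Over the whole window, DARs between genotypes were more frequent than over the genome. Unstimulated, 464 of the 1372 tested peaks were DARs (33.8%), 294 lower and 170 higher in AhR-KO, against 22.6% of all tested peaks. With LPS there were 496 (36.2%), 254 lower and 242 higher, against 26.5%. The rest of chromosome 12 gave 22.8% and 24.8%, and the other chromosomes 22.5% and 26.4%. DARs with the same direction in both treatments numbered 294 (21.4%; 180 lower, 114 higher), against 12% of all tested peaks, and 149 of these differed at least 2-fold in both (10.9%; 100 lower, 49 higher), against 4.7%. In 5 peaks the direction was opposite in the 2 treatments: in an Hdac9 intron described below, near Rnf144a (log2 1.43 unstimulated, -1.67 with LPS), near Cmpk2 (-1.12 and 1.09), near Slc26a4 (-1.91 and 0.78) and in Atxn7l1 (-1.07 and 0.92). The last 4 were named after their values were seen. The groups did not overlap at 405 peaks unstimulated (29.5%) and at 395 with LPS (28.8%), against 21% and 19.6% of all tested peaks. The median log2 difference was -0.15 unstimulated and -0.04 with LPS, beside -0.02 and 0.02 over all tested peaks. Peaks near the 1.5-fold limit were common: the smallest absolute log2 difference called was 0.585 unstimulated and 0.587 with LPS, the largest just under the limit was 0.580 and 0.584, and 202 and 275 peaks passed on the adjusted p alone.

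**Figure D2:**
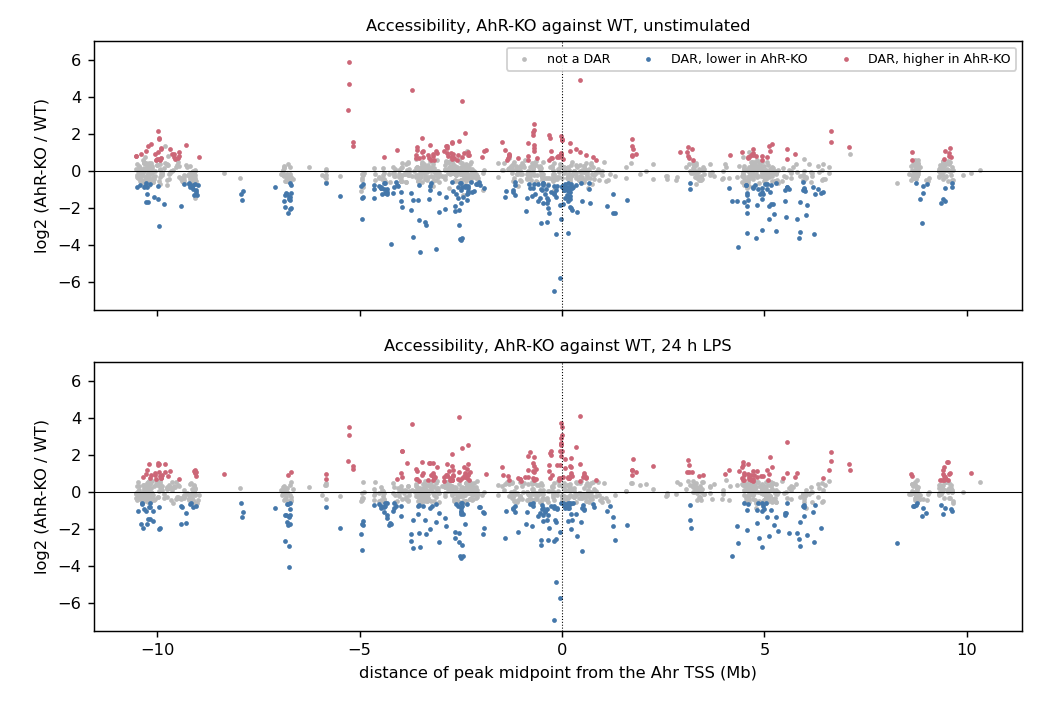
Log2 difference in accessibility between AhR-KO and WT (y axis) for the 1372 tested peaks against the distance of the peak from the Ahr start site in Mb (x axis), without stimulation (top) and after 24 h of LPS (bottom), with DARs coloured by direction. Log2 differences above 3 appear at Sntg2, Cog5, Cdhr3 and Agr2 and, with LPS, near Sypl and within Ahr, and the lowest point in each panel is the repeat peak, whose height depends on the prior count because all AhR-KO libraries were at 0.

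Differences of 4-fold or more in both treatments were found at 32 peaks. Of these, 26 were lower in AhR-KO, against 0.574% of all tested peaks, and 6 were higher, against 0.00861%. The latter are 6 of the 15 such peaks in all 174193. The other chromosomes held 943 peaks of 4-fold or more among 166574, of which 8 were higher, and the rest of chromosome 12 held 40 among 6247, of which 1 was higher. The 6 gains lay at Sntg2 (2 peaks), within Cog5, within Cdhr3, before Agr2 and far from Lrrn3.

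Sntg2 encodes gamma-2-syntrophin, an adaptor of the dystrophin complex at the membrane. Its 5 tested peaks were all higher in AhR-KO in both treatments. The intronic peak shown as the fourth sequence (chr12:30282350-30282918) held 0, 0.191 and 0.33 CPM in WT and 9.21, 10.9 and 16 CPM in AhR-KO unstimulated. With LPS it held 0.118, 0.165 and 0.24 CPM and 1.34, 1.47 and 1.98 CPM. The groups did not overlap in either treatment, with log2 differences of 5.88 ± 0.21 and 3.08 ± 0.23 (adjusted p = 2.4e-21 and 1.1e-12). LPS closed it in AhR-KO (-2.94 ± 0.14, adjusted p = 9.3e-20) and the fit gave -0.14 ± 0.38 in WT, where few counts were present in either state.

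The neighbouring intronic peak (chr12:30264413-30266213) followed the same course. It rose from 0.475 ± 0.138 to 12.9 ± 2.06 CPM unstimulated (log2 difference 4.70 ± 0.25) and from 0.387 ± 0.268 to 4.45 ± 0.727 CPM with LPS (3.48 ± 0.25), and fell by 1.54 on the log2 scale with LPS in AhR-KO. The peak over the Sntg2 TSS (chr12:30373114-30373605) was low, at 0.639 ± 0.366 against 1.67 ± 0.126 CPM unstimulated and 0.465 ± 0.213 against 1.23 ± 0.498 CPM with LPS, and was the only TSS peak among the listed genes that was a DAR of genotype in both treatments (log2 1.35 and 1.38, adjusted p = 1.7e-04 and 8.2e-05).

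Cog5, a subunit of a tethering complex of the Golgi, held the gain at chr12:31825678-31826493, whose nearest TSS is that of the orphan receptor gene Gpr22 inside it. WT libraries lay at 0.138, 0.32 and 0.349 CPM and AhR-KO libraries at 5.19, 6.03 and 7.0 CPM unstimulated. With LPS these were 0.24, 0.365 and 0.521 CPM and 4.08, 4.84 and 5.45 CPM. The lowest AhR-KO library was thus well above the highest WT library in both treatments (log2 4.37 ± 0.18 and 3.65 ± 0.16), and LPS had no DAR in either genotype here. Also within Cog5, chr12:31800913-31801171 and chr12:31865132-31865687 were at least 4-fold lower, with log2 differences of -2.07 and -2.68, and of -3.55 and -3.04, unstimulated and with LPS, and the second is 83.8% repeat.

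Agr2 and Agr3 encode disulfide isomerases of the endoplasmic reticulum best known from mucous epithelium, and neither had a tested peak over its TSS. The gain before Agr2 (chr12:35978156-35978656, 14501 bases from the TSS; sequence above) held 0.132, 0.247 and 0.322 CPM in WT and 6.17, 7.53 and 9.07 CPM in AhR-KO unstimulated. With LPS the values were 0.133, 0.25 and 0.391 CPM and 3.67, 4.59 and 4.95 CPM. The log2 differences were 4.94 ± 0.19 and 4.08 ± 0.17 (adjusted p = 9.9e-21 and 2.1e-19), and LPS lowered it in AhR-KO (-0.76 ± 0.11). In the space before Agr3 the direction was the reverse at chr12:35758885-35759425, a peak of 13.3 ± 0.521 CPM in WT and 3.34 ± 0.50 CPM in AhR-KO unstimulated and of 6.42 ± 0.481 and 1.61 ± 0.173 CPM with LPS. Its log2 difference was -1.99 in both treatments, and LPS decreased it: it fell by 1.05 in both genotypes on the log2 scale.

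Prkar2b, the RIIβ regulatory subunit of protein kinase A, lost 2 intronic peaks. At chr12:32015292-32015686, the third sequence, WT libraries held 11.6, 12.8 and 13.5 CPM and AhR-KO libraries 0.439, 0.594 and 0.775 CPM unstimulated. With LPS they held 11.4, 12.5 and 13.8 CPM and 0.946, 1.69 and 1.99 CPM. No AhR-KO library came near the WT range (log2 -4.37 ± 0.14 and -2.97 ± 0.12). The LPS difference was not significant in WT (-0.02 ± 0.10, adjusted p = 0.85) and LPS raised the peak in AhR-KO (1.37 ± 0.17, adjusted p = 1.1e-08). The second, chr12:32008700-32010228, fell from 8.05 ± 0.457 to 1.28 ± 0.224 CPM and from 5.51 ± 0.461 to 1.18 ± 0.0888 CPM (log2 -2.65 ± 0.11 and -2.22 ± 0.11). Another intronic peak, chr12:32057183-32057963, had no genotype DAR and opened with LPS in both genotypes (2.98 ± 0.13 in WT, 2.39 ± 0.12 in AhR-KO). Over the 26 tested peaks nearest to Prkar2b, 3 were lower and 4 higher unstimulated and 4 lower and 3 higher with LPS, or 26.9% in each, near the 22.6% and 26.5% of all tested peaks.

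Cdhr3, a cadherin-related protein of ciliated epithelium, held 3 losses in and beyond the gene and 1 gain among them. The highest of the losses (chr12:33056557-33057823) fell from 8.93 ± 0.779 to 0.747 ± 0.0695 CPM unstimulated and from 11.7 ± 2.39 to 1.62 ± 0.743 CPM with LPS. At chr12:33044507-33044760 the levels were 2.43 ± 0.418 against 0.18 ± 0.0908 CPM and 1.16 ± 0.235 against 0.0923 ± 0.0379 CPM, and at chr12:33024712-33024961 they were 1.14 ± 0.256 against 0.0885 ± 0.0913 and 1.46 ± 0.402 against 0.127 ± 0.0498 CPM. All 3 gave log2 differences between -3.70 and -2.87 over both treatments. Just beyond the first of these, chr12:33058942-33059266 was open in AhR-KO instead, with mean levels of 0.173 CPM in WT and 2.66 CPM in AhR-KO unstimulated and of 0.265 and 1.38 CPM with LPS (log2 3.79 and 2.36).

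**Figure D3:**
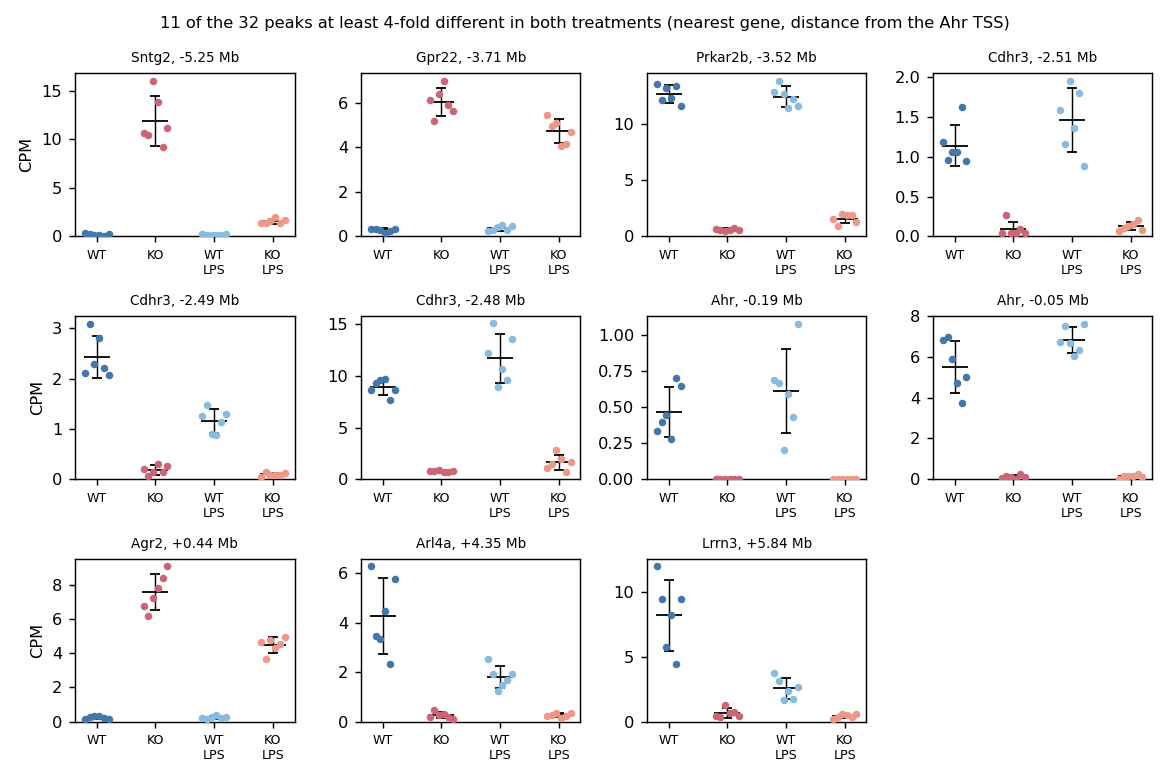
Accessibility in CPM (y axes, each from 0) of 11 of the 32 peaks that differed at least 4-fold in both treatments, by group (x axes), with points for the 6 libraries, a bar at the mean and whiskers of 1 SD; titles give the nearest gene and the distance from the Ahr start site. Genotypes do not overlap in any panel, with gains at Sntg2, Gpr22 (within Cog5) and Agr2 and losses at the other 8.

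Around Snx13, a sorting nexin gene directly beside Ahr, there were both gains and losses. Of the 37 peaks nearest to it, 16 were lower and 6 higher unstimulated (59.5%) and 14 lower and 7 higher with LPS (56.8%), where 12.6% of all tested peaks were lower and 9.95% higher unstimulated and 13.1% lower and 13.4% higher with LPS. At chr12:35246038-35247051 the level rose from 4.02 ± 0.562 to 14.3 ± 1.18 CPM and from 2.76 ± 0.594 to 11.6 ± 0.681 CPM with LPS (log2 1.81 ± 0.11 and 2.07 ± 0.11). At chr12:35266400-35267636 it rose from 7.34 ± 1.03 to 15.8 ± 0.405 CPM and from 4.51 ± 0.344 to 18 ± 1.02 CPM (log2 1.08 ± 0.08 and 1.99 ± 0.08), a larger difference with LPS (interaction 0.91 ± 0.11, adjusted p = 6.7e-07). A strong loss, chr12:35018503-35019360, had mean levels of 12.9 and 1.85 CPM unstimulated and 6.19 and 0.858 CPM with LPS. The peak over the Snx13 TSS stayed under 1.5-fold in both treatments (log2 -0.31 and -0.36, adjusted p = 9.8e-06 and 3.3e-07).

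Hdac9, a class IIa histone deacetylase, had no tested peak over its TSS. Of the 55 peaks nearest to it, 29.1% were DARs unstimulated (9 lower, 7 higher) and 32.7% with LPS (8 lower, 10 higher). By nearest TSS, Hdac9 thus lay between all tested peaks (22.6% and 26.5%) and the window (33.8% and 36.2%). Counted instead over the gene body or 5 kb upstream, its 93 tested peaks held 15 lower and 18 higher unstimulated. With LPS 14 were lower and 22 higher, and both shares of DARs were then above those of the window. The intronic peaks described next are nearest to the TSS of Prps1l1 and are not among the 55. In its introns, chr12:34844673-34845544 rose in AhR-KO from 1.73 ± 0.444 to 8.16 ± 0.98 CPM unstimulated, and with LPS the levels were 10.2 ± 1.6 and 14.1 ± 0.959 CPM (log2 2.21 ± 0.14 and 0.47 ± 0.10, the second under 1.5-fold). At chr12:34822175-34822812 the genotype difference turned round with LPS: AhR-KO libraries were higher unstimulated (1.91 ± 0.402 against 7.36 ± 0.658 CPM, log2 1.94 ± 0.14) and lower with LPS (7.54 ± 1.22 against 4.45 ± 0.681 CPM, log2 -0.76 ± 0.12). This is 1 of the 5 peaks of opposite direction (interaction -2.69 ± 0.18, adjusted p = 2.3e-12).

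Further from Ahr, 2 intergenic or intronic peaks among the most reduced stood near Arl4a, a small GTPase gene, and Immp2l, a subunit of the mitochondrial inner membrane peptidase. The first (chr12:39885748-39886178) fell from 4.27 ± 1.52 to 0.26 ± 0.127 CPM unstimulated and from 1.8 ± 0.455 to 0.266 ± 0.082 CPM with LPS. The second (chr12:41377745-41378502), in an Immp2l intron with Lrrn3 as its nearest TSS, fell from 8.19 ± 2.73 to 0.67 ± 0.356 CPM and from 2.57 ± 0.813 to 0.442 ± 0.163 CPM. Both were partly closed by LPS in WT (log2 -1.26 ± 0.19 and -1.69 ± 0.22), and in AhR-KO, where little was left, LPS gave no DAR. Near Ccdc71l, chr12:32430670-32431583 was 8.66 ± 1.58 CPM in WT and 0.469 ± 0.16 CPM in AhR-KO unstimulated and higher with LPS in both genotypes (20 ± 1.36 and 6.5 ± 1.13 CPM; log2 -4.22 ± 0.17 and -1.62 ± 0.11). Near Sypl, chr12:32888457-32889294 gave -1.90 ± 0.17 and -2.49 ± 0.15.

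Start sites reached the 1.5-fold threshold far less often than the sites between them. Of the 45 promoter peaks, 4 were genotype DARs unstimulated (lower at Rsad2, Ahr and Fam110c, higher at Sntg2) and 2 with LPS (lower at Fam110c, higher at Sntg2), or 8.89% and 4.44%, where 6.21% and 6.98% of all 13458 tested peaks over a TSS were. Fam110c, outside the listed genes, gave log2 differences of -0.93 and -0.77. Introns gave 34.3% and 36%, and intergenic peaks 35.1% and 38.9%. Without regard to fold, the genotypes did not overlap at 51.1% of the promoter peaks unstimulated and at 22.2% with LPS. These shares were 27.6% and 27% for introns and 29.7% and 30.6% for intergenic peaks. Over all tested peaks at a TSS they were 26.6% and 12.8%. Among 51 listed genes of the window, 40 had a tested TSS peak, and of these 2 were lower and 1 higher unstimulated and 0 lower and 1 higher with LPS (edgeR; 22.6% and 26.5% of all tested peaks were DARs). The median log2 difference over the 40 was -0.24 unstimulated and -0.12 with LPS, beside -0.01 and -0.03 over all peaks at a TSS. Cog5 and Dus4l share a TSS peak, as do Bzw2 and Ankmy2.

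Among interferon- and LPS-inducible genes, Rsad2, which encodes the antiviral protein viperin, lost accessibility at its TSS in AhR-KO unstimulated. The peak (chr12:26455962-26456740) held 8.72, 10.6 and 12.5 CPM in WT and 5.14, 6.07 and 7.95 CPM in AhR-KO unstimulated. With LPS it held 16.2, 17.9 and 20.6 CPM and 19.5, 21.1 and 22 CPM. The difference of -0.71 ± 0.10 (adjusted p = 3.9e-07) was replaced by one of 0.21 ± 0.08 with LPS, under 1.5-fold (interaction 0.92 ± 0.13, adjusted p = 8.2e-06). Its neighbour Cmpk2, a mitochondrial nucleotide kinase, gave -0.36 and -0.14. The TSS peaks of Nampt, the enzyme of NAD salvage, of Ifrd1 and of Dnajb9, a chaperone of the endoplasmic reticulum, were DARs in neither treatment (log2 -0.15 for Ifrd1 and -0.38 for Dnajb9 unstimulated).

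The signalling genes Prkar2b, Pik3cg (the p110γ kinase of leukocytes), Snx13 and Rnf144a (a ubiquitin ligase) all had lower TSS peaks in AhR-KO at an adjusted p under 0.05 in both treatments, and none reached 1.5-fold (log2 -0.56 to -0.31 unstimulated and -0.50 to -0.36 with LPS). Of the transcription regulators with a TSS peak, Ahr alone was a genotype DAR, in the unstimulated comparison, and Hbp1, Id2, Twist1 and Etv1 lay between -0.34 and 0.20 unstimulated. The cytoskeletal genes Dock4, Scin, Arl4a, Tspan13 and Nrcam held no genotype DAR, with Scin, an actin-severing protein, closest at -0.58 unstimulated. None of the secretory, metabolic or translation genes had one. Agmo, the alkylglycerol monooxygenase, had a TSS peak of 19.7 and 26.8 CPM unstimulated and 6.98 and 9.62 CPM with LPS in WT and AhR-KO (log2 0.43 and 0.46).

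Within the window, differences of 4-fold or more in both treatments began within Sntg2 on the side of lower coordinates, while few peaks were tested at the other end. Going towards Ahr, the first peak of 4-fold or more in both treatments was the Sntg2 peak at chr12:30264413-30266213. The tested peak 5.84 kb before it, also in Sntg2, was a gain as well (log2 3.31 and 1.67). Of the tested peaks further out, not all of which are reported here, 3 nearest to Myt1l, 551 to 562 kb from the first strong peak, lay between -0.63 and -0.39 unstimulated and between -0.82 and 0.36 with LPS. The furthest of these (chr12:29701421-29701978) was a DAR lower in AhR-KO in both treatments (log2 -0.63 and -0.82). Tested peaks between these 3 and Sntg2 are not reported, so the 3 do not show how sharply the differences began. The 1 Mb bin from 29 Mb, with 9 tested peaks, had an SD of the log2 differences of 0.30 unstimulated and 0.55 with LPS, and the bin from 30 Mb, with 25, had 1.95 and 1.54. The bin from 28 Mb, with 0.71 and 1.02, was with LPS already above some bins of the stretch, such as that from 32 Mb (0.95 and 0.90). Differences that missed the 4-fold limit in at least 1 treatment started earlier. In the bin from 28 Mb, over Eipr1, 19.5% of 41 tested peaks differed at least 2-fold in both treatments, and in the bin from 26 Mb 1.59% of 63 did. Single differences there were large: from 25 to 30 Mb the largest absolute log2 differences were 2.93 unstimulated and 4.03 with LPS.

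On the far side the last such peak was chr12:42188817-42188992, a small gain 702473 bases from the TSS of Lrrn3, a neuronal leucine-rich repeat gene. It rested on 6 counts in WT and 35 in AhR-KO unstimulated and on 26 and 97 with LPS, and its reference is 90.9% repeat. The next tested peaks, 444 and 464 kb on, were still higher in AhR-KO (log2 1.32 and 1.49, then 0.94 and 1.16), and no further peak was tested until one 1621 kb from the last strong peak. The stretch between the first and the last 4-fold peak was 11.9 Mb long. Outside the window, the nearest 4-fold peaks on this chromosome were both losses. One lay near Mboat2 (chr12:24868519-24869481), 131 kb before the window and 5.39 Mb before the stretch, and the other near Scfd1 (chr12:51449191-51449732), 5.45 Mb after the window and 9.26 Mb after the stretch, and both were named after their values were seen.

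**Figure D4:**
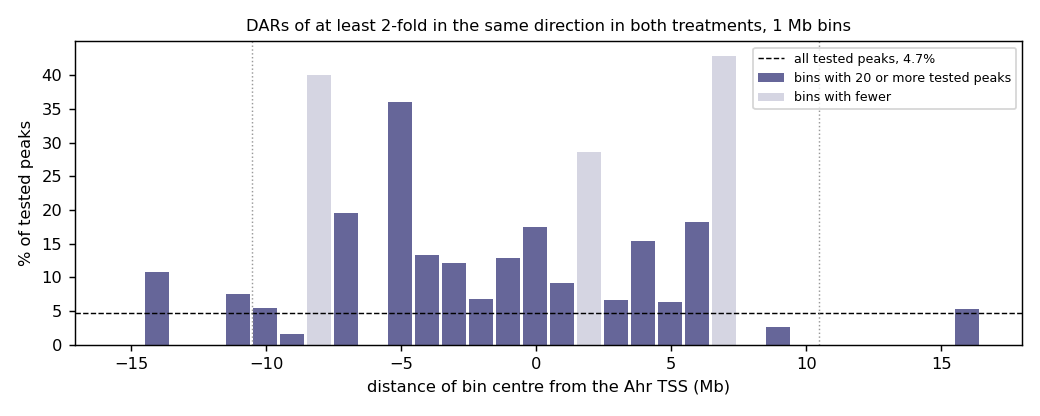
Percentage of tested peaks that were DARs of one direction, with a 2-fold difference or more, unstimulated and with LPS (y axis, from 0) per 1 Mb bin of chromosome 12, against the distance of the bin centre from the Ahr start site in Mb (x axis), with bins of fewer than 20 tested peaks in a paler shade, dotted lines at the window's ends and a dashed line at 4.7%, the value for all tested peaks. Bins within the window that hold 20 or more peaks range from 0% for the last bin to 36% for the Sntg2 bin, with 19.5% from 28 Mb, 18.2% from 41 Mb and 17.5% for the Ahr bin. Over the whole chromosome, the highest share outside the window among such bins was 18%, from 113 Mb (89 tested peaks), close to that of the Ahr bin.

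Within the stretch, differences were not uniform. The bin that holds Ahr (35 to 36 Mb, 160 tested peaks) held 51.9% DARs unstimulated, 53.8% with LPS and 40% in the same direction in both, and the Sntg2 bin 56.0%, 48.0% and 40%. The bin from 41 Mb, over Immp2l and Lrrn3, had 47.3%, 41.8% and 36.4%, and the bins from 38 Mb and 40 Mb had 20% and 29.6% unstimulated. The bins from 34, 37 and 38 Mb held no 4-fold peak. Before the stretch, 267 tested peaks gave 30% and 30.7% DARs, in it 999 gave 36.3% and 38.1%, and after it 106 gave 19.8% and 31.1%. The limits of the stretch were set by these same genotype differences. Every peak of the window with 4-fold or more in both treatments lies in it by construction, so these shares are a description and no test. From 25 to 30 Mb the largest absolute log2 differences among 264 tested peaks were 2.93 unstimulated and 4.03 with LPS, and from 43 to 46 Mb, among 104, they were 2.78 and 2.75.

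The 32 strong peaks had 53 tested neighbours, at a median gap of 4.54 kb. Of these, 20 were themselves DARs of one direction in both treatments (37.7%), where 21.4% of the tested peaks of the window and 12% of all tested peaks were. The median absolute log2 difference of the neighbours was 0.485 unstimulated and 0.613 with LPS, beside 0.421 and 0.440 for all tested peaks of the window and 0.321 and 0.317 for all tested peaks of the genome. Gene by gene, shares of lower and higher peaks are to be read beside 12.6% and 9.95% of all tested peaks unstimulated and 13.1% and 13.4% with LPS. Eipr1, an endosomal trafficking factor before the stretch, had 10 of its 20 peaks lower and none higher unstimulated, and 10 lower and 2 higher with LPS. Nampt had 4 lower (8.33%) and 14 higher (29.2%) of 48 unstimulated and 2 lower (4.17%) and 18 higher (37.5%) with LPS. Over the 7 peaks nearest to Meox2, a homeobox gene without a TSS peak, 4 were lower in both treatments, and over the 8 nearest to Agmo 6 were higher unstimulated and 5 with LPS.

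A somewhat larger share of these peaks than of all tested peaks responded to LPS. In WT cultures 727 of the 1372 peaks were DARs (53.0%; 401 opened, 326 closed), against 47.0% of all tested peaks, and in AhR-KO cultures 756 were (55.1%; 485 opened, 271 closed), against 48.9%. The 2 comparisons share no library. They had 552 DARs of the same direction in common, 347 opened and 205 closed, which is 75.9% of those in WT and 73.0% of those in AhR-KO. Over all tested peaks these shares were 77.8% and 74.9%. In 7 peaks the direction was opposite (0.51%), against 338 of all tested peaks (0.194%).

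The peaks that opened with LPS at the smallest p lay near Ahr, in Prkar2b, before Agr3 and near Rnf144a, ahead of the stretch. Besides those above, chr12:25781275-25782253 rose from 1.31 ± 0.22 to 9.73 ± 0.91 CPM in WT and from 1.71 ± 0.197 to 11.3 ± 0.582 CPM in AhR-KO. At chr12:35733092-35735285, before Agr3, WT rose from 8.43 ± 1.36 to 25.4 ± 1.93 CPM. AhR-KO started lower, at 2.95 ± 0.547 CPM, and came to 26.9 ± 2.98 CPM, so that a difference of -1.49 ± 0.11 unstimulated was 0.08 ± 0.08 with LPS (interaction 1.57 ± 0.14, adjusted p = 1.9e-09). At start sites, LPS opened those of Scin (log2 2.05 in WT and 2.41 in AhR-KO), Slc26a4, the anion exchanger pendrin (1.04 and 1.43), and Rsad2 (0.81 and 1.73), and closed that of Agmo (-1.50 and -1.48). Those of Id2, an inhibitor of helix-loop-helix factors, and Nrcam, an adhesion protein, were DARs with LPS in AhR-KO (-0.75 and -0.88) and gave -0.39 and -0.52 in WT, under 1.5-fold.

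The peaks that closed with LPS at the smallest p lay in introns of Hdac9, Stxbp6 and Eipr1, in Pnpla8 and near Nampt. The Hdac9 peak at chr12:34724424-34725579 fell from 15.7 ± 1.37 to 3.91 ± 0.427 CPM in WT and from 12.2 ± 1.11 to 2.81 ± 0.463 CPM in AhR-KO (log2 -2.0 ± 0.10 and -2.12 ± 0.10). The Stxbp6 peak at chr12:44918835-44920083 fell by 1.59 and 1.38 on the log2 scale. Closing was deeper in AhR-KO at chr12:28799982-28801210 in Eipr1 (-1.26 ± 0.08 in WT, -2.38 ± 0.08 in AhR-KO), at chr12:32856339-32857535 near Nampt (-0.89 ± 0.06 and -1.99 ± 0.06) and at chr12:44283290-44283856 in Pnpla8, a phospholipase (-1.11 ± 0.08 and -1.84 ± 0.08), each with an interaction DAR (adjusted p = 2.2e-08, 3.9e-10 and 5.0e-05). In a second Eipr1 intron peak, chr12:28812157-28812950, closing was deeper in WT (-2.38 ± 0.13 against -1.74 ± 0.15), and in the third, chr12:28837678-28838552, the interaction was 2.54 ± 0.22 (-0.50 ± 0.14 in WT, under 1.5-fold, 2.04 ± 0.16 in AhR-KO).

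**Figure D5:**
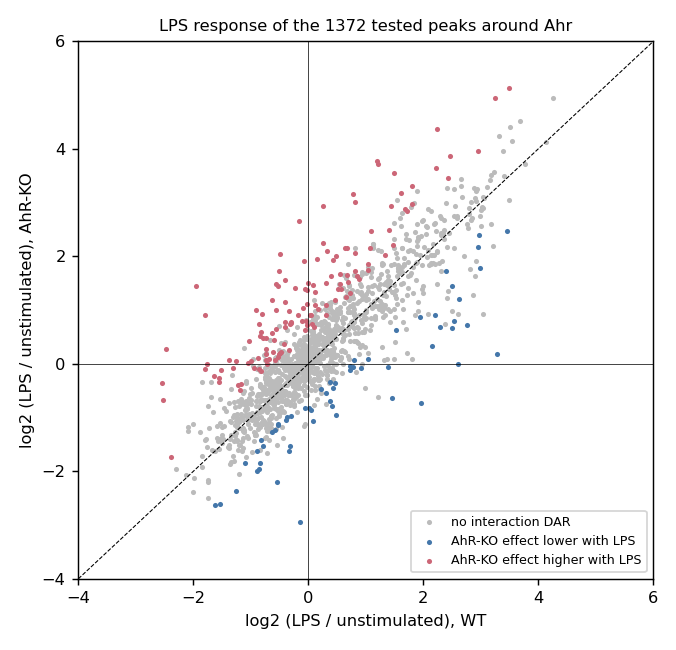
Log2 response to LPS in AhR-KO (y axis) against that in WT (x axis) for the 1372 tested peaks, with interaction DARs coloured by sign and a dashed line of equal response. Peaks that opened or closed in WT mostly did so in AhR-KO as well, and 133 of the 192 interaction DARs lie above it.

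The genotype difference itself changed with LPS at 192 peaks (14%, against 10.4% of all tested peaks), with a positive interaction at 133 and a negative one at 59. Peaks that were lower in both treatments had 20 positive and 6 negative interactions among 180, and those higher in both had 14 and 7 among 114. Of the 26 peaks with 4-fold losses, 2 had a positive interaction and none a negative one. Of the 6 with 4-fold gains, 3 had a negative interaction and none a positive one, and LPS closed 4 of them in AhR-KO and opened 1. Among the 711 peaks that were genotype DARs in neither treatment, LPS opened 181 and closed 154 in WT and opened 210 and closed 154 in AhR-KO. These shares are near the 47.0% and 48.9% of all tested peaks that were DARs of LPS in WT and in AhR-KO.

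Summed over the window, accessibility was slightly lower in AhR-KO. The 1462 peaks took 0.689% ± 0.0155 of a library's counts in WT and 0.632% ± 0.0160 in AhR-KO unstimulated (mean ± SD, n = 6; difference -0.0576 percentage points, exact two-sided permutation test, adjusted p = 0.00433), with no overlap. With LPS they took 0.708% ± 0.0152 and 0.682% ± 0.00812 (difference -0.0258, exact permutation test, adjusted p = 0.0115), and as a share of chromosome 12 counts alone the LPS comparison did not pass (exact permutation test, adjusted p = 0.0606). LPS raised the share in AhR-KO by 0.0504 points (adjusted p = 0.00433, exact permutation test), and in WT the difference was 0.0187 points (adjusted p = 0.0563, exact permutation test). p-values were adjusted over the 4 comparisons, and 0.00216 is the smallest unadjusted p that the assignments of 6 against 6 libraries can give.

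For the number of open sites, no genotype difference passed the test when any overlap with a broad peak counted. Broad peaks called in a single library covered 667 ± 86.1 of the 1462 sites in WT and 663 ± 25.7 in AhR-KO unstimulated (mean ± SD, n = 6), and 828 ± 40.9 and 790.5 ± 33 with LPS. The genotype differences of -4.5 and -37.2 sites were not significant (exact two-sided permutation test, adjusted p = 0.920 and 0.144). When a broad peak had to cover at least 50% of the site, the difference with LPS was -73.3 sites (exact permutation test, adjusted p = 0.0144). LPS libraries had 160.5 more called sites in WT and 128 more in AhR-KO (exact permutation test, adjusted p = 0.00433 for each). Depth differed as well: libraries held 8.54 to 23.1 M counts in WT unstimulated and 25.1 to 34.6 M in WT LPS. AhR-KO libraries held 18.9 to 25.7 M unstimulated and 22.4 to 28.5 M with LPS. The shallowest library, WT unstimulated replicate 5, had the fewest called sites of its group (510). The part of depth in these differences in called sites was not tested. A site called in all 6 WT libraries and in no AhR-KO library was found 15 times unstimulated, 25 times with LPS and 5 times in both, and the reverse 18, 26 and 4 times. The first pattern took 1.03%, 1.71% and 0.342% of the 1462 sites, against 0.361%, 0.948% and 0.0798% of all 184158 consensus peaks, and the reverse 1.23%, 1.78% and 0.274%, against 0.413%, 0.357% and 0.0157%. The 5 were the peaks described in Prkar2b (chr12:32015292-32015686), beyond Ahr (chr12:35479981-35481193) and near Arl4a, with chr12:32168780-32169441 near Pik3cg and chr12:41766473-41767470 in Immp2l. The 4 were those in Sntg2 (chr12:30264413-30266213), in Cog5, over exon 3 of Ahr and before Agr2.

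Sequence features of the strong sites are given as a description. Within the central 300 bases of the peak, the AhR core GCGTG was found on either strand in 46.2% of the 26 peaks with 4-fold losses, in 10.9% of all 1462 peaks and in 15.1% of the 8075 peaks of chromosome 12. The AP-1 motif TGANTCA was found in 11.5%, 21.6% and 17.9%, and the PU.1 motif GAGGAAG in 19.2%, 16.8% and 18.1%. Of the 6 gains, 16.7% held GCGTG and none held the other motifs. The 26 losses had a median of 46.2% GC and 14% repeat, beside 44.3% and 12.2% for the whole window, and 15.4% of them, against 8.14%, were mostly repeat. A short match of this kind does not show that a factor binds there.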

How the data were processed

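ATAC-seq read pairs of 24 libraries were processed by the authors with the nf-core atacseq pipeline (1.2.1) against mm10: Tn5 fragments were aligned, broad peaks were called per library with MACS2 and merged into consensus peaks, and read pairs were counted over these with featureCounts. The deposited counts are raw, and a pair was counted where at least 0.2 of it overlapped a peak, in each of several peaks if needed. The deposited broad peaks carry −log10 q values, used for calls per library, and fold enrichment ratios, deposited by the authors but not used in results. Pipeline tools are credited to the submitters' processing notes.

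Counts were tested with edgeR (4.0.16, R 4.3.3) by quasi-likelihood F-tests with TMM scaling, filterByExpr and all 24 libraries in 1 fit of 4 groups, and p-values were adjusted (Benjamini-Hochberg) over 174193 peaks. CPM are TMM-scaled. DESeq2 (1.42.0) served as an alternative. Peaks were placed by GENCODE vM21 basic on GRCm38.p6, consensus starts were made 1-based, and the nearest gene is that of the closest protein-coding TSS. Shares and calls per library were compared by exact permutation tests that enumerated every assignment of the libraries (Python 3.11.15, numpy 2.4.6). The scripts were tested on simulated data.

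Named peaks are every peak over Ahr, the peak over the TSS of each of 51 listed genes, the DARs of the window ranked first by p, separately for higher and lower (5 for each genotype comparison, 3 for each LPS comparison and the interaction), the peaks at the edges of the stretch of 4-fold differences, and further peaks, the other 4-fold ones included, that were chosen after their values were seen. The window, the lists and the rules were chosen with earlier results of these data known. Libraries held 8.54 to 34.6 M counts. A peak at 0 was given a floor of 3 counts over the group, which covers counting error only. Alternatives changed the scaling, filter, dispersion, samples, threshold, block and denominators, and left out each library in turn. A few genes and the peaks named by them are not reported here.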

Additional observations from a re-analysis of the deposited data

Results flagged for a closer look

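In 12 of 196 groups of 6 libraries, 1 library stood apart from the rest by Dixon's criterion at the 95% level, which chance alone meets in about 1 in 20 groups. Among WT unstimulated libraries, replicate 5 held 1.63 CPM at the Cdhr3 peak chr12:33024712-33024961, where the others held 0.941 to 1.19, and 5.35 CPM at the Snx13 peak chr12:35266400, where the others held 7.20 to 8.12. Replicate 2 held 0.741 CPM at the Ahr intron 2 peak against 0.233 to 0.396, replicate 1 held 0.132 CPM at the last 4-fold peak near Lrrn3 against 0 to 0.0495, and replicate 3 held 15.8 CPM at the Pnpla8 peak against 11.5 to 13.1.

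Among AhR-KO unstimulated libraries, replicate 2 had broad peaks over 613 of the sites, against 666 to 689, and 0.270 CPM at the same Cdhr3 peak against 0.0393 to 0.0912. Replicate 1 held 1.93 CPM at the Sntg2 start site against 1.61 to 1.64, and replicate 5 held 2.19 CPM at the Prkar2b peak that opened with LPS against 1.22 to 1.58. With LPS, WT replicate 1 held 8.03 CPM at the peak near Rnf144a against 9.62 to 10.5. AhR-KO LPS replicate 5 held 2.85 CPM at the Ahr peak chr12:35505307 against 1.22 to 1.70, and 1.95 CPM at the Agr3 peak chr12:35758885 against 1.49 to 1.58.

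The response to LPS differed between genotypes by the interaction term in edgeR at 25 of the named peaks. Within Ahr the interaction was 1.57, 1.08, 2.24, 1.91, 0.74, 1.97, 2.81, 1.74 and 1.36 on the log2 scale at 9 peaks, from the 3′ end towards the start. It was positive as well at Rsad2 (0.92), at 2 Eipr1 peaks (0.64 and 2.54), in Prkar2b (1.40), near Ccdc71l (2.59), near Snx13 (0.91), before Agr3 (1.57) and near Arl4a (1.32). It was negative at the other Eipr1 peak (-1.12), at both Sntg2 peaks (-1.22 and -2.79), at the Prkar2b peak that opened with LPS (-0.59), near Nampt (-1.10), at both Hdac9 intron peaks (-2.69 and -1.74) and in Pnpla8 (-0.73).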

How the results depend on the processing

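Other scaling (DESeq2 size factors, TMM without chromosome 12), DESeq2, no filter, dispersion per peak, a fit of only the groups compared and the replicate block left each count of DARs within 1.5 times its value. The same 32 peaks differed at least 4-fold under the scalings, DESeq2, dispersion per peak and the replicate block, and 26 of them among 28 when only the groups compared were fitted. At 2-fold instead of 1.5-fold the DARs were 254 and 265 for genotype (unstimulated, LPS), 444 and 500 for LPS (WT, AhR-KO) and 115 for the interaction, and with the adjusted p alone the LPS genotype comparison gave 771. Leaving out 1 library gave 443 to 477, 485 to 521, 719 to 743, 748 to 773 and 165 to 223 DARs in the same order, 25 to 29 losses and 5 to 7 gains of 4-fold, and 95 to 105 losses and 47 to 56 gains of 2-fold, the last 4 chosen after seeing the data.

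As a share of chromosome 12 counts, the LPS genotype difference was -0.310 points (exact permutation test, adjusted p = 0.0606) and the LPS difference in WT 0.764 (adjusted p = 0.00289). Leaving out 1 library gave shares of -0.0625 to -0.0535 and -0.0306 to -0.0227 for genotype and 0.0137 to 0.0235 (WT) and 0.0463 to 0.0547 (AhR-KO) for LPS. The WT value passed without WT unstimulated replicate 4 (0.0212, adjusted p = 0.0498) or WT LPS replicate 5 (0.0235, adjusted p = 0.0173). The genotype difference in called sites, which was not significant, changed sign unstimulated when broad peaks had to cover 50% of a site (18.2), and was 1.07, 4.87, 2.87 and 11.9 without WT unstimulated replicate 2, 3, 4 or 6 and 5.43 without AhR-KO unstimulated replicate 2, over a range of -35.9 to 11.9. With LPS it was -73.3 at 50% (exact permutation test, adjusted p = 0.0144), and -49.1 to -26.7 without 1 library, and the LPS differences were 129.1 to 176.9 (WT) and 117.9 to 137.7 (AhR-KO). The cause of these changes was not tested.

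Replicate numbers were not taken as pairs, since no label pairs them and not every same-numbered pair correlated above 0.1. Between genotypes, deviations of same-numbered libraries correlated between -0.14 and 0.27. Between unstimulated and LPS libraries of a genotype all correlations were positive, at 0.05 to 0.34 in WT and 0.009 to 0.21 in AhR-KO. Whether these libraries share animals was not tested, and the unpaired LPS and interaction tests take no account of it. With the replicate block the WT share difference of 0.0187 passed (exact paired permutation test, adjusted p = 0.0313), and the LPS differences of 160.5 and 127.8 called sites had an adjusted p of 0.0625, although all 6 same-numbered pairs moved upwards and the unadjusted p of 0.0313 is the smallest that 6 pairs can give. For the named peaks, no value of 3258 under the alternatives changed sign and 59 lost their call. These were interactions of the Sntg2 peak chr12:30264413-30266213 (19 alternatives, each without 1 library, adjusted p up to 0.141), the Prkar2b peak that opened with LPS (11, up to 0.0791, some by fold only), the Arl4a peak (8) and an Eipr1 peak (2), the LPS response of the Cdhr3 peak chr12:33044507-33044760 in AhR-KO (10, up to 0.159) and 9 at Ahr: the loss at chr12:35518178-35519384 with LPS without AhR-KO LPS replicate 1 or 3 or WT LPS replicate 4 or 6, where it fell under 1.5-fold, the intron 2 peak's LPS response in WT without WT LPS replicate 1 or 2 or WT unstimulated replicate 2, its interaction without the last, and the exon 3 interaction without WT unstimulated replicate 6.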
